A study of Rattus norvegicus with 22 samples.

Results

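Amino acid transport into liver cells was examined through 5 genes, Slc38a2, Slc38a4, Slc38a3, Slc7a2 and Slc3a2, chosen by symbol as transporters of the hepatocyte plasma membrane. They were chosen with earlier results of these data known. All 5 were among the 14971 genes of the liver expression table, and all 5 passed the minimum mean normalised count of 10 that left 12424 genes for testing. The liver RNA came from 22 rats in a design with surgery and exposure as factors. Sham-operated rats breathed air (5 rats) or ozone (6 rats), and rats whose hepatic branch of the vagus nerve had been cut breathed air (6 rats) or ozone (5 rats). All rats were operated at 12 weeks of age, recovered for 5 to 6 days and were then exposed for 4 hours a day. Ozone was given at 1 ppm, the exposure lasted 1 or 2 days without a label saying which rat had which, and necropsy followed within 2 hours. All 4 groups thus carry an operation, and no unoperated rats were analysed here. Strain and sex are not given in the labels, and the libraries are called by group and replicate number, for example sham ozone library 1.

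Hepatocytes take amino acids from portal blood for gluconeogenesis, urea synthesis and protein synthesis, and the carriers in their plasma membrane can limit how fast this goes. Slc38 proteins carry small neutral amino acids together with sodium, Slc7a2 carries the cationic amino acids arginine, lysine and ornithine, and Slc3a2 is a heavy chain that brings several Slc7 light chains to the cell surface. Fasting, glucagon and glucocorticoids are known to raise hepatic amino acid uptake, and amino acid shortage raises Slc38a2 through the transcription factor ATF4.

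Reads assigned to genes numbered 14098863 to 21141337 per library. Values are the submitters' normalised read counts, that is read counts divided by a size factor per library, and they were compared as log2(normalised count + 1) with limma in a fit of all 4 groups, adjusted over all 12424 genes. Fold values printed as log2 changes are on this scale. Levels of different genes are not compared, because the counts are not divided by transcript length. The 6 hepatocyte markers (Alb among them) summed to 2085250 to 3064760 in the 22 libraries and with ozone none of them passed the test in sham rats and 1 rose in vagotomised rats. In 4 libraries, namely vagotomised air 1 and 5, sham ozone 3 and vagotomised ozone 1, the 5.8S ribosomal RNA stood at 38.1 to 180, against 342 to 3775 in the other 18. Where a transporter's call ended or a member correlation moved most without these 4 libraries, both values are given.

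The start regions of 3 transporters are shown first, those for which a promoter window was at hand. All 3 were called as risen with ozone in sham rats. RefSeq promoter windows of the rat build GRCr8 were at hand for 3 of the 5 genes, Slc38a2, Slc38a4 and Slc3a2 (which has 2 windows), and the 250 bases before the transcription start are printed in the direction of transcription. Capitals mark the matched letters.

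Slc38a2, chr7:129742620-129742869, minus strand: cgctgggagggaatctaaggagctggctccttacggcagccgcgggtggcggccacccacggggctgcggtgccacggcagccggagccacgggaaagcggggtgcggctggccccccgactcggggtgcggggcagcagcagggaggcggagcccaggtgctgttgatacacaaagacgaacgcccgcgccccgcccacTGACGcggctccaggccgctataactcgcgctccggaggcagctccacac

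Slc38a4, chr7:130082170-130082419, minus strand: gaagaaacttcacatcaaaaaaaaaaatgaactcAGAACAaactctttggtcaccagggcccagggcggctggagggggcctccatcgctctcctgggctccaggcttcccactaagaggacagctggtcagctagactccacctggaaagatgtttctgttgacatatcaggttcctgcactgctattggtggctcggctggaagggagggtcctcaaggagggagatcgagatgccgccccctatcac

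Slc3a2, chr1:215048065-215048314, minus strand: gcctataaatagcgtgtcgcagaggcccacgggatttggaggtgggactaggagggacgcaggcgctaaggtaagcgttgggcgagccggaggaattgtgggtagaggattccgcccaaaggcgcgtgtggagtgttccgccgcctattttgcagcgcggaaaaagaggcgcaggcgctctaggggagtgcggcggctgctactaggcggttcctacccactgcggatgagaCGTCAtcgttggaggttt

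The Slc38a2 window holds TGACG, the core of the cyclic AMP response element, 50 to 46 bases before the start, and the Slc3a2 window holds the same core on the other strand (CGTCA) 18 to 14 bases before it. The Slc38a4 window holds AGAACA, an arm of the glucocorticoid response element, 216 to 211 bases before the start. These short matches are common: searched on both strands, TGACG was in 18.2% and AGAACA in 17.5% of the 33469 rat promoter windows of this length. The full palindrome TGACGTCA (1.59% of windows), the full glucocorticoid response element (0.373%) and the amino acid response core TGATGNAA (3.4%) had no match in the 4 windows, and the second Slc3a2 window matched none of the motifs searched. Bases farther upstream and bases after the start, introns among them, were not searched. These absences therefore hold for the windows only and do not show that a gene lacks such a site. TGACG also lies inside TGACGTCA. In the gene order of GRCr8, Slc38a2 lies between Slc38a1 and Slc38a4, and Slc38a1, with group means of 2.11 to 2.83 normalised counts, was too low to be tested. The Slc38a2 window was 72.4% G and C, against 54.4% for Slc38a4, 60.8% for the printed Slc3a2 window and a median of 51.2% over all windows. A match of letters is a description of the window and not a binding site.

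Slc38a4 encodes the sodium-coupled carrier of small neutral amino acids that is found mainly in liver. Its normalised counts were 19303.5, 24903, 14744.5, 17570 and 21487 in the 5 sham air libraries, and in the 6 sham ozone libraries the lowest, median and highest were 34337, 44728 and 51482. Vagotomised air libraries ran from 12263 through a median of 19740 to 24758, and the 5 vagotomised ozone libraries held 34744, 45303, 59034, 48339 and 38387. No ozone library reached down to any air library, and the 4 groups fell into an air pair and an ozone pair with overlapping values inside each pair. The group means were 19602 ± 3856 (SD, n = 5) in sham air, 19152 ± 4345 (n = 6) in vagotomised air, 43720 ± 5824 (n = 6) in sham ozone and 45161 ± 9447 (n = 5) in vagotomised ozone. Slc38a4 thus rose with ozone by a log2 change of 1.17 ± 0.17 (SE; limma adjusted p = 1.64e-05) in sham rats and by 1.25 ± 0.17 (adjusted p = 1.28e-05) in vagotomised rats. The difference between these changes was 0.08, with a 95% interval of -0.41 to 0.57 and a limma adjusted p of 0.958.

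Slc38a2 encodes the more widely expressed carrier of the same kind, the one whose mRNA is known to follow amino acid supply. Sham air libraries held 1018, 1195, 1810, 2251 and 2578 normalised counts, and vagotomised air libraries ran from 1734 through a median of 1922 to 2675. The 6 sham ozone libraries were spread far more widely, with 11338, 4275, 2243, 1927, 8349 and 4754 in libraries 1 to 6. The 5 vagotomised ozone libraries held 4297, 2662, 2101, 2461 and 1415. In sham rats 4 of 6 ozone libraries lay above every air library, and libraries 3 and 4 lay inside the air range. In vagotomised rats only ozone library 1 lay above the air range, and library 5 lay under it. Sham ozone library 3 and vagotomised ozone library 1 are among those low in 5.8S ribosomal RNA. The mean ± SD was 1770 ± 668 (n = 5) in sham air, 2087 ± 419 (n = 6) in vagotomised air, 5481 ± 3678 (n = 6) in sham ozone and 2587 ± 1067 (n = 5) in vagotomised ozone. The coefficient of variation was thus 67.1% in sham ozone against 37.7% in sham air. Slc38a2 rose with ozone by 1.43 ± 0.36 (limma adjusted p = 0.00475) in sham rats, and the change in vagotomised rats was 0.24 ± 0.36 (adjusted p = 0.702, 95% interval -0.51 to 0.99).

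Slc38a3 encodes the system N carrier, which moves glutamine, asparagine and histidine in either direction across the hepatocyte membrane. Its counts were 11845, 11614, 8650, 8044 and 8712 in sham air and 10932, 11319, 12272, 9531 and 11098 in vagotomised ozone. The lowest, median and highest were 8128, 9097 and 9544 in vagotomised air and 9569, 10498 and 11020 in sham ozone. All sham ozone libraries lay within the sham air range, whose upper end came from sham air libraries 1 and 2. The means were 9773 ± 1807 (SD, n = 5), 9014 ± 478 (n = 6), 10358 ± 585 (n = 6) and 11031 ± 986 (n = 5) in the order sham air, vagotomised air, then sham and vagotomised ozone. The log2 change with ozone was 0.10 ± 0.10 (limma adjusted p = 0.473, 95% interval -0.10 to 0.30) in sham rats. It was 0.29 ± 0.10 (adjusted p = 0.0387) in vagotomised rats, where 4 of 5 ozone libraries lay above all air libraries. That last call was lost in 11 of 34 alternatives, among them scaling to equal column totals (0.27, adjusted p = 0.0545) or upper quartiles (0.24, adjusted p = 0.0879) and leaving out the 4 libraries low in 5.8S ribosomal RNA (0.26, adjusted p = 0.109). It was also lost without vagotomised air library 1, 3, 4 or 6 or vagotomised ozone library 1, 2, 3 or 5, where the change lay between 0.25 and 0.29 and the adjusted p reached 0.118.

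Slc7a2 encodes a carrier of arginine, lysine and ornithine. The sham air libraries held 2165, 6157, 4581, 4873 and 5793 normalised counts, library 1 being the low one, and the sham ozone libraries ran from 9940 through a median of 12469 to 15645. Vagotomised air libraries ran from 3607 through 5550 to 8761, and vagotomised ozone libraries held 12057, 13293, 10333, 7932 and 8212. Every sham ozone library lay above every sham air library, while in vagotomised rats 3 of 5 ozone libraries did so, and libraries 4 and 5 lay under vagotomised air library 5. The means were 4714 ± 1564 (SD, n = 5) in sham air, 5867 ± 1720 (n = 6) in vagotomised air, 12495 ± 2372 (n = 6) in sham ozone and 10366 ± 2345 (n = 5) in vagotomised ozone. Slc7a2 rose by 1.47 ± 0.23 (limma adjusted p = 4.9e-05) with ozone in sham rats and by 0.84 ± 0.23 (adjusted p = 0.0113) in vagotomised rats. The difference between these changes was -0.63 (95% interval -1.30 to 0.05, limma adjusted p = 0.577), and it was -0.37 without sham air library 1, the low one. Over its 33 alternatives the adjusted p ran from 0.361 to 0.769.

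Slc3a2 encodes the heavy chain (CD98) of the heterodimeric amino acid exchangers. Its counts were 1005, 791, 988, 983 and 968 in sham air and ran from 737 through 973 to 1095 in vagotomised air. In sham ozone they ran from 1614 through a median of 1775 to 2132, and in vagotomised ozone they were 1304, 1581, 1786, 1695 and 1540. All 11 ozone libraries lay above all 11 air libraries, and the highest ozone value was sham ozone library 3. The means were 947 ± 88.2 (SD, n = 5), 954 ± 122 (n = 6), 1838 ± 205 (n = 6) and 1581 ± 183 (n = 5) in the order sham air, vagotomised air, then sham and vagotomised ozone. Slc3a2 rose by 0.95 ± 0.11 (limma adjusted p = 7.93e-07) in sham rats and by 0.73 ± 0.11 (adjusted p = 3.35e-05) in vagotomised rats.

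**Figure D1:**
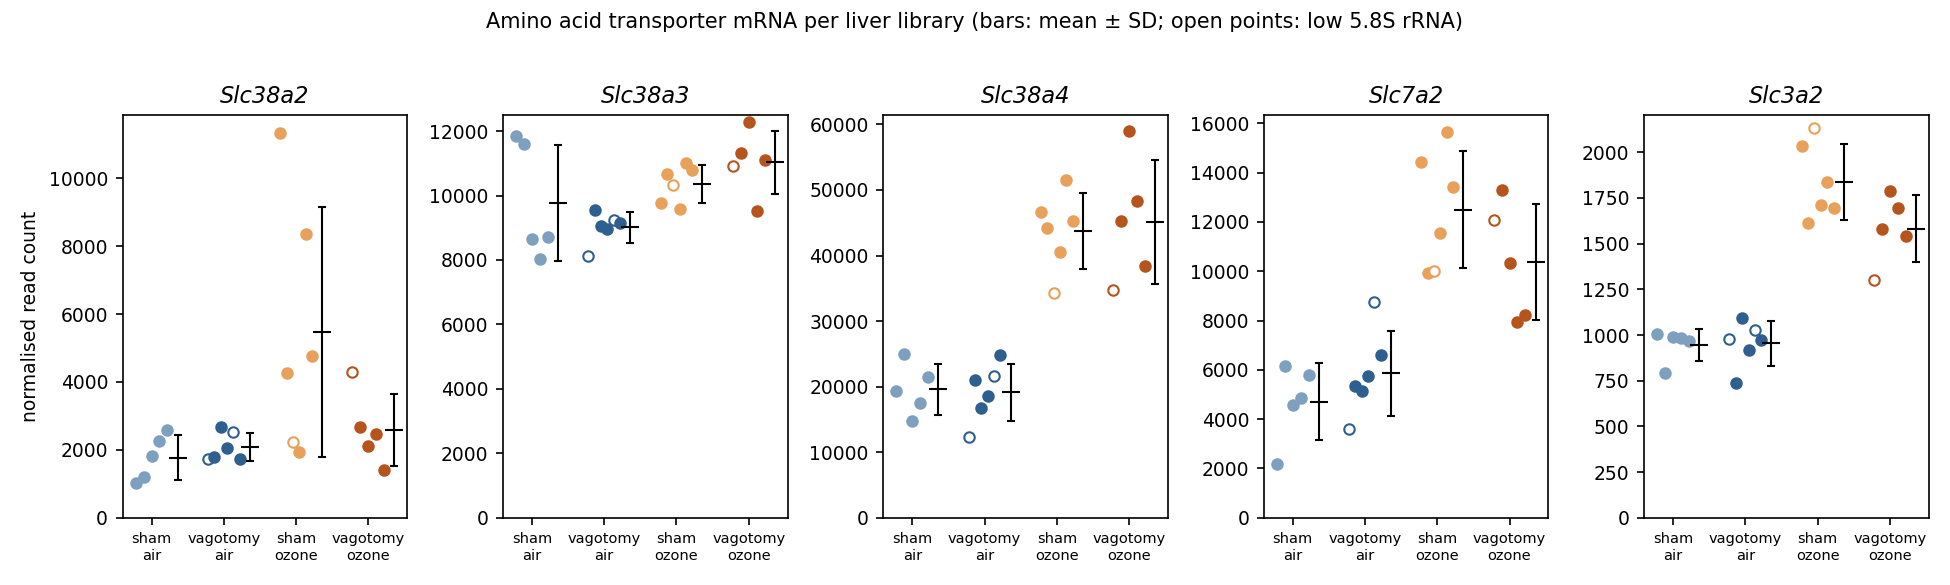
Normalised read counts of the 5 transporter genes (one panel each, linear axis from 0) in every library of the 4 groups, with the group mean ± SD beside the points; open points are the 4 libraries low in 5.8S ribosomal RNA. Slc38a4 and Slc3a2 show no overlap between the 11 air and 11 ozone libraries, and Slc38a2 is spread from 1927 to 11338 in sham ozone.

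Across the 5 genes, ozone in sham rats was followed by higher transporter mRNA in 4, all but Slc38a3. Over all tested genes 28.4% were called in this comparison and 14.6% were called as risen. The median log2 change was 1.17 over the 5 transporters and 0.01 over all genes. Because the 5 genes were chosen with earlier results of these data known, such shares and medians are descriptions, here and in vagotomised rats. As ratios of group means, the transporters stood at 3.10 (Slc38a2), 2.65 (Slc7a2), 2.23 (Slc38a4), 1.94 (Slc3a2) and 1.06 (Slc38a3). Slc38a4, Slc7a2 and Slc3a2 had no overlap between the 6 ozone and 5 air libraries, a pattern that 8.15% of all genes showed in the higher direction. The calls of the 4 risen genes held in all 34 alternatives, with changes of 1.17 to 1.68 for Slc38a2, 1.21 to 1.59 for Slc7a2, 1.07 to 1.26 for Slc38a4 and 0.85 to 0.99 for Slc3a2. Because the tissue is a mixture of cells, more cells of a type and more RNA per cell cannot be told apart where a gene is higher, nor fewer cells and less RNA per cell where it is lower.

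In vagotomised rats 4 of the 5 genes were called as well, but not the same 4: Slc38a4, Slc7a2, Slc3a2 and Slc38a3 rose and Slc38a2 did not pass. Over all genes 21.1% were called and 11.4% were called as risen, and the median change was 0.73 over the 5 transporters against -0.01 over all genes. The ratios of means were 2.36 (Slc38a4), 1.77 (Slc7a2), 1.66 (Slc3a2), 1.24 (Slc38a2) and 1.22 (Slc38a3). Slc38a4 and Slc3a2 had no overlap between the 5 ozone and 6 air libraries, which held for 6.54% of all genes in the higher direction. Set over all rats, those were also the transporters whose 11 ozone values lay above all 11 air values, as for 2.91% of genes. The calls of Slc38a4, Slc3a2 and Slc7a2 held in all 34 alternatives, with changes of 1.13 to 1.34, 0.66 to 0.84 and 0.71 to 0.97.

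**Figure D2:**
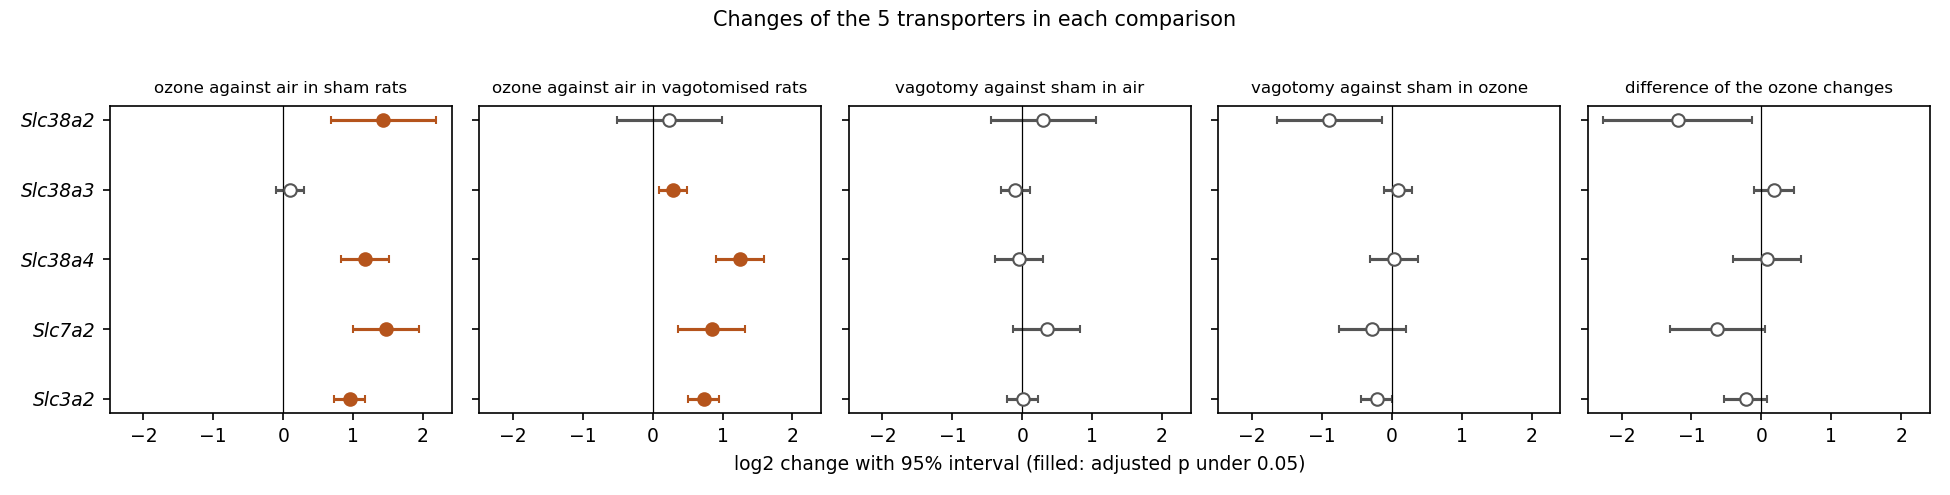
Log2 change of each transporter (points) with its 95% interval (bars) in the 5 comparisons, filled where the limma adjusted p was under 0.05. The filled points are confined to the panels of ozone against air, with 4 genes in each.

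No transporter was called between vagotomised and sham rats. In rats that breathed air the changes were 0.30 (Slc38a2), 0.35 (Slc7a2), 0.01 (Slc3a2), -0.05 (Slc38a4) and -0.10 (Slc38a3), each with a limma adjusted p of 0.9995. The widest of the intervals, that of Slc38a2, ran from -0.45 to 1.06 and the narrowest, that of Slc38a3, from -0.30 to 0.10, and changes within these bounds are not distinguished from none. None of the 12424 genes (0%) was called by limma, with 387 (3.11%) at an unadjusted p under 0.05. In rats that breathed ozone, Slc38a2 was lower after vagotomy by a log2 change of -0.89 ± 0.36 (95% interval -1.65 to -0.14), with a limma adjusted p of 0.242 that did not pass. Its unadjusted p was 0.0222, and 15% of all genes had an unadjusted p under 0.05 in the limma fit of this comparison. Slc3a2 (-0.22, adjusted p = 0.340), Slc7a2 (-0.28, adjusted p = 0.632), Slc38a3 (0.09, adjusted p = 0.744) and Slc38a4 (0.03, adjusted p = 0.955) did not pass either, and 1.34% of all genes were called. The median change of the 5 genes was -0.22, against -0.01 over all genes.

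Whether the ozone change itself differed between sham and vagotomised rats was tested as an interaction. For Slc38a2 the change was smaller in vagotomised rats by -1.20 ± 0.51 on the log2 scale (95% interval -2.26 to -0.13), with an unadjusted p of 0.0294 and a limma adjusted p of 0.50. Leaving out the 4 libraries low in 5.8S ribosomal RNA gave -1.59 (adjusted p = 0.258), and vagotomy against sham in ozone then stood at -1.30 (adjusted p = 0.0655). The rise of Slc38a2 in sham rats was 1.64 without them (adjusted p = 0.0011) and its change in vagotomised rats 0.05 (adjusted p = 0.949). For Slc3a2 and Slc38a3 the differences were -0.22 (95% interval -0.53 to 0.09, limma adjusted p = 0.701) and 0.19 (95% interval -0.10 to 0.47, adjusted p = 0.742). No gene of the 12424 (0%) was called for this difference by limma or by edgeR, 1147 (9.23%) had an unadjusted limma p under 0.05, and DESeq2 called 16. A rise in sham rats only is therefore not shown for Slc38a2, although its call was made in that surgery group alone.

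The spread of Slc38a2 inside the sham ozone group was shared by other genes. Over the 22 libraries the genes with the highest Pearson correlation of log2 values to Slc38a2 were Noct (r = 0.895), a circadian and nutrient-responsive phosphatase, Tat (r = 0.895), the hepatic tyrosine aminotransferase known for its induction by glucocorticoids and glucagon, and Sesn2 (r = 0.880), a leucine sensor and ATF4 target. After the group means were taken out the values were 0.814, 0.822 and 0.780. In sham ozone libraries 1 to 6, Tat stood at 60158, 40928, 27072, 18376, 51198 and 42063 normalised counts and Noct at 1184, 348, 113, 61.7, 855 and 263. Sesn2 stood at 4369, 3908, 1672, 1377, 3375 and 2415. Library 1 was the highest and library 4 the lowest for Slc38a2 and for all of the nearest genes. Library 5 came next to the highest for Slc38a2, Noct and Tat, and library 2 did so for Sesn2. In vagotomised ozone libraries 1 to 5, Tat stood at 37541, 27142, 25507, 25344 and 13830, with library 1 the highest and library 5 the lowest, as for Slc38a2. The labels give exposures of 1 or 2 days without naming the rats, and the part of exposure length in this spread was not tested.

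The genes most like Slc38a4 were, as it was, apart between air and ozone. They were Arg1 (r = 0.977), the arginase of the urea cycle, Tdo2 (r = 0.975), tryptophan dioxygenase, and Etnppl (r = 0.968), a phospholyase of ethanolamine phosphate, with 0.855, 0.871 and 0.841 after group means were taken out. Arg1 ranged from 13852 to 18697 in sham air and from 30136 to 48654 in sham ozone, and its lowest ozone library of either surgery group lay above its highest air library, 22609. For Slc7a2 the nearest genes were Peak1 (r = 0.962), Tns1 (0.948) and Pcyt1a (0.943), with 0.871, 0.820 and 0.884 after group means were taken out, and for Slc3a2 they were Tatdn2 (0.955), Spsb4 (0.944) and Ctdp1 (0.943), with 0.730, 0.574 and 0.427. For Slc38a3 they were Eif4h (0.813), Tmem86a (0.807) and Slc2a9 (0.804), with 0.804, 0.778 and 0.700. These correlations were picked as the highest among all tested genes, the points share the 4 groups, and they are descriptions over 22 libraries.

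**Figure D3:**
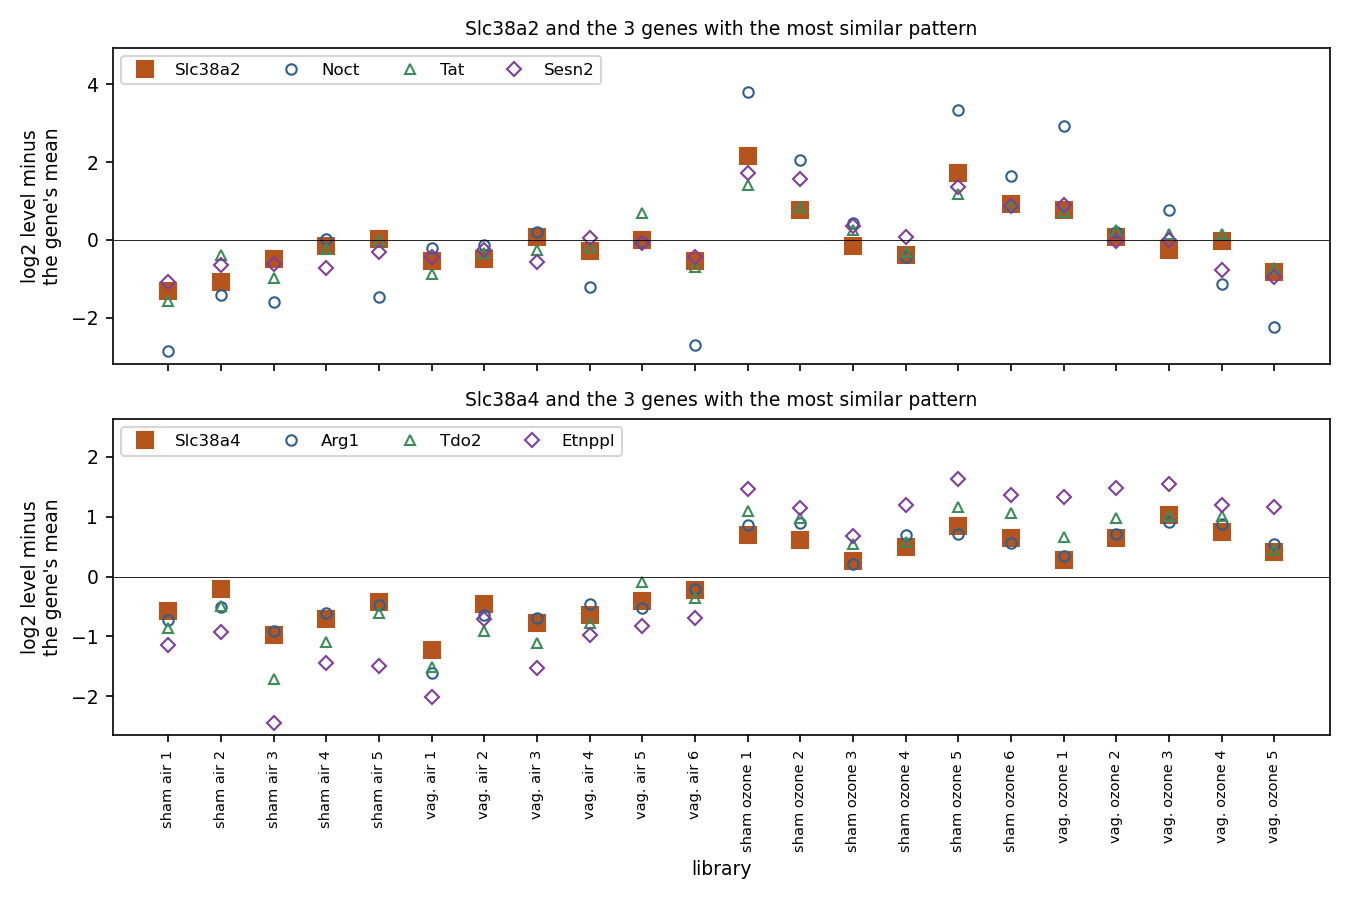
Log2 level minus the gene's mean (vertical axis) in each of the 22 libraries (horizontal axis) for Slc38a2 with Noct, Tat and Sesn2 (upper panel) and Slc38a4 with Arg1, Tdo2 and Etnppl (lower panel). The Slc38a2 set is uneven within sham ozone, with library 1 the highest and library 4 the lowest for all 4 genes, while every ozone library of the Slc38a4 set lies above its air libraries.

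Among the 5 transporters themselves, deviations from the group means were compared over the 22 libraries in 10 pairs. With all libraries the closest pair was Slc38a2 with Slc7a2 (Pearson r = 0.514, permutation p = 0.00633, adjusted over the pairs 0.0633; Spearman rho = 0.547, permutation p = 0.0121, adjusted 0.0818). Its r was 0.563 without the 2 libraries farthest from the median of Slc38a2 and 0.461 without the 4 low in 5.8S ribosomal RNA. Slc38a3 with Slc38a4 gave r = 0.463 (permutation p = 0.0400, adjusted 0.200) and rho = 0.546 (permutation p = 0.0164, adjusted 0.0818). Slc38a2 with Slc3a2 gave r = 0.0770 and rho = 0.106 (permutation p = 0.742 and 0.671, adjusted 0.846 and 0.779). Without the 4 libraries low in 5.8S ribosomal RNA its r was 0.471 (permutation p = 0.0333, adjusted 0.294), above the 0.461 of Slc38a2 with Slc7a2, so the order of the pairs depended on those libraries. None of the 10 pairs passed the adjustment with or without them, and Slc38a2 with Slc38a4 gave r = 0.128 and rho = 0.0864 (permutation p = 0.533 and 0.701, adjusted 0.761 and 0.779).

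The other amino acid carriers of the plasma membrane showed no common direction. Over all genes 13.8% fell in sham and 9.63% in vagotomised rats. Of 11 tested carriers of neutral amino acids, 2 rose and 3 fell with ozone in sham rats, with a median change of -0.11, and 2 rose and 1 fell in vagotomised rats, with a median of 0.20. Slc1a4, an exchanger of alanine, serine and cysteine, rose by 2.21 ± 0.24 (limma adjusted p = 7.69e-07) in sham and 1.33 ± 0.24 (adjusted p = 0.000409) in vagotomised rats. Its means were 115 ± 28.0 (SD, n = 5) in sham air, 106 ± 32.5 (n = 6) in vagotomised air, 543 ± 161 (n = 6) in sham ozone and 273 ± 94.3 (n = 5) in vagotomised ozone. Slc16a10, a carrier of aromatic amino acids, rose by 1.90 ± 0.23 (adjusted p = 1.98e-06) and 1.48 ± 0.23 (limma adjusted p = 6.76e-05). Slc43a2, a carrier of large neutral amino acids, fell by 0.45 in sham rats (limma adjusted p = 0.0207, and 0.0521 without sham ozone library 2), as did the low-count genes Slc1a5 (-0.80, adjusted p = 0.0425) and Slc7a8 (-0.60, adjusted p = 0.0457), named outside the rule.

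Slc1a4 was also the only carrier of these lists called between vagotomised and sham rats in ozone, where it was lower by -1.01 ± 0.24 (limma adjusted p = 0.0398). That call was lost in 12 of 34 alternatives, with an adjusted p of up to 0.149. The libraries whose removal ended it were sham air 3 and 4, vagotomised air 4, sham ozone 1, 2 and 3, and vagotomised ozone 2, 4 and 5. The difference between its ozone changes had a limma adjusted p of 0.462.

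Slc3a2 needs a light chain to work as a transporter, and its light chains were counted separately. Of 5 tested light chains none rose and 2 fell in each surgery group, with median changes of -0.60 in sham and -0.21 in vagotomised rats. Over all genes 13.8% and 9.63% fell. Both medians are the values of Slc7a8, the second fall in sham rats (limma adjusted p = 0.0457). It has a low mean of 28.0 normalised counts, and Slc7a6 (15.8) and Slc7a10 (10.9) lie near the minimum of 10, all 3 named outside the rule. Slc7a7, the light chain for cationic and neutral exchange, fell by 0.77 (limma adjusted p = 0.00402) in sham rats and by 0.58 (adjusted p = 0.0349) in vagotomised rats. The second call was lost in 9 of 34 alternatives, with equal column totals (adjusted p = 0.0521), with the replicate block (0.0532), and without vagotomised air library 1, 3, 4 or 6 or vagotomised ozone library 2, 3 or 4 (limma adjusted p up to 0.126). Slc7a5, the light chain for large neutral amino acids, stood at 102 ± 9.31 (SD, n = 5) in sham air, 141 ± 77.7 (n = 6) in vagotomised air, 57.4 ± 12.2 (n = 6) in sham ozone and 44.8 ± 20.8 (n = 5) in vagotomised ozone. It fell by 1.60 (limma adjusted p = 0.0012) in vagotomised rats, and its change in sham rats was -0.84 (adjusted p = 0.0612). The other cationic, anionic and cystine carriers gave no rise, with Slc7a7 the only fall among 6 tested and median changes of -0.34 and -0.05. Of 3 taurine, betaine and GABA carriers none passed in either surgery group.

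Carriers inside the cell were counted by location. Of 10 tested mitochondrial amino acid carriers 5 rose in each surgery group, with median changes of 0.35 in sham and 0.43 in vagotomised rats. Slc25a15, the ornithine carrier of the urea cycle, rose by 2.22 ± 0.16 (limma adjusted p = 3.57e-09) and 1.99 ± 0.16 (adjusted p = 2.22e-08), from a mean of 11963 in sham air to 56487 in sham ozone. Slc25a29, a carrier of basic amino acids, rose by 2.83 ± 0.39 (limma adjusted p = 9.84e-06) and 1.55 ± 0.39 (adjusted p = 0.00583), and the glutamate carrier Slc25a22 rose by 1.73 ± 0.32 and 1.35 ± 0.32. The others risen were Slc25a38 in both surgery groups, Sfxn1 in sham rats and Slc25a12 in vagotomised rats, of which all were named outside the rule. In sham rats Sfxn3 (outside the rule) and Slc25a13 fell, the latter by 0.26 with a limma adjusted p of 0.0368 that was lost in 7 of 34 alternatives. Of 8 lysosomal and intracellular carriers 4 fell and 1 rose in sham rats (median -0.26), and 1 fell in vagotomised rats (median -0.13). Slc38a9, the arginine sensor of the lysosome, fell by 0.77 (limma adjusted p = 0.00115) in sham rats. Slc15a3, named outside the rule, fell by 0.69 in sham and 0.92 in vagotomised rats. The calls of Slc38a7 (-0.32), Ctns (-0.32) and Pqlc2 (0.33) in sham rats had adjusted p of 0.0465, 0.0424 and 0.0207 and were lost in 20, 10 and 5 of 34 limma, edgeR and DESeq2 alternatives, removals of single libraries among them.

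**Figure D4:**
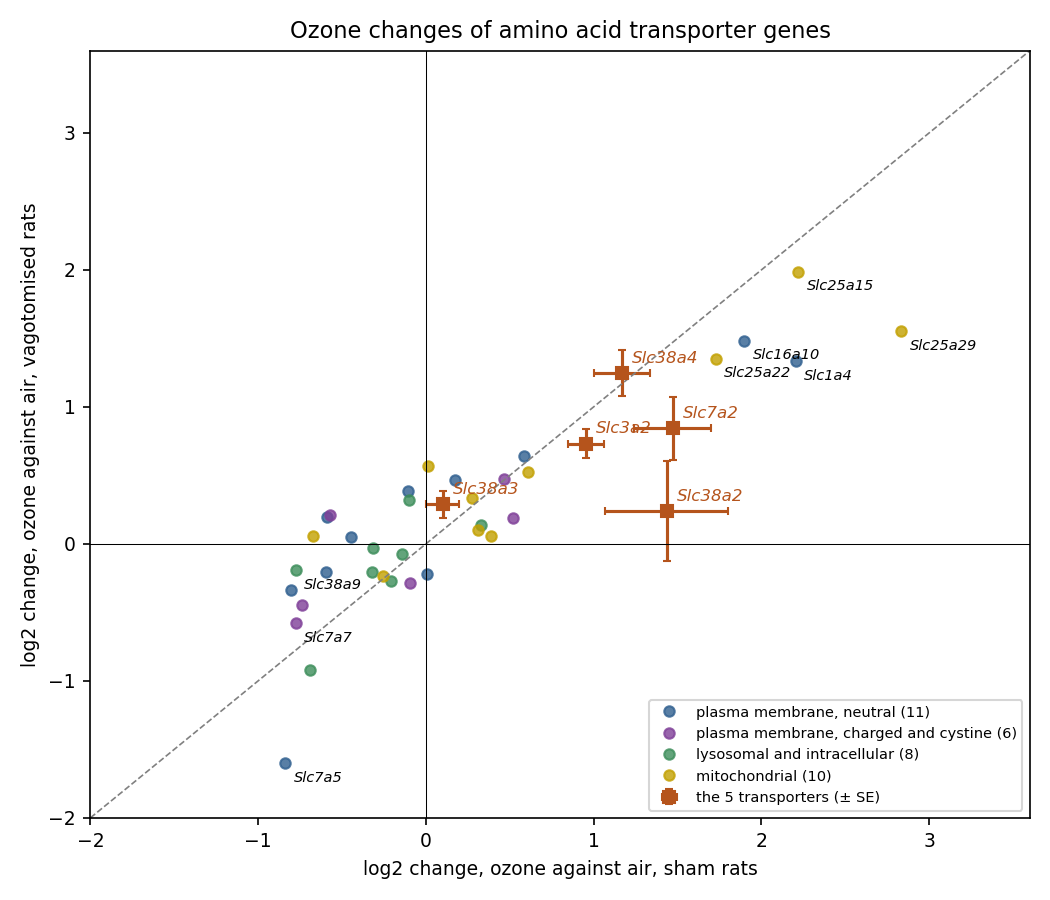
Log2 change with ozone in sham rats (horizontal axis) against vagotomised rats (vertical axis) for the 5 transporters (squares ± SE) and for 35 other tested amino acid carriers by location; the dashed line marks equal changes, and the axes use separate air groups. Slc38a4 lies near the line, Slc38a2 lies at 1.43 and 0.24, and Slc7a5 lies at the bottom left.

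Genes that metabolise the carried amino acids were taken as a list around glutamine, alanine, serine and arginine, chosen with earlier results of these data known. It includes genes whose enzymes do not consume these amino acids themselves, among them Cps1, Nags, Ass1, Asl, Otc, Oat, Odc1 and Glud1. It also includes Azin2, an antizyme inhibitor. Of 17 tested genes of the list, 12 rose and none fell in sham rats, and 7 rose and none fell in vagotomised rats, with median changes of 0.63 and 0.47 against 0.01 and -0.01 over all genes. Sds, the serine dehydratase of gluconeogenesis, rose by 4.58 and 3.65 (limma adjusted p = 2.32e-07 and 6.79e-06), from 350 ± 295 (SD, n = 5) in sham air to 6910 ± 1771 (n = 6) in sham ozone. Arg1 rose by 1.30 ± 0.18 and 1.37 ± 0.18, and Asl, argininosuccinate lyase of the urea cycle, rose by 1.16 ± 0.16 and 1.24 ± 0.16. Periportal hepatocyte markers moved with these genes: 4 of 5 rose in sham and 3 of 5 in vagotomised rats, and Sds, Gls2 and Sdsl stand in both lists. Their summed normalised counts ranged from 9032 to 17029 in sham air, 9332 to 12824 in vagotomised air, 21143 to 27532 in sham ozone and 15163 to 24967 in vagotomised ozone, and their part in the transporter changes was not tested. Of 5 tested pericentral markers 1 rose in sham rats and none passed in vagotomised rats, with median changes of 0.47 and -0.06. For the periportal markers these were 0.64 and 0.61. The pericentral markers Glul and Oat also stand in the list around glutamine, alanine, serine and arginine, and Slc1a2 stands among the anionic carriers. Summed counts of the 6 listed pericentral markers ranged from 41342.5 to 112701 in sham air and from 84773 to 173767 in sham ozone. In vagotomised rats they ranged from 58558 to 87730 in air and from 79100 to 104360 in ozone. The part of pericentral cells in the transporter changes was not tested either.

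Amino acid shortage acts through ATF4 on a known set of genes. Of 12 tested genes around ATF4, 5 rose with ozone in sham rats (median 0.50) and 1 in vagotomised rats (median -0.01), and none fell. Over all genes 14.6% rose in sham and 11.4% in vagotomised rats. The genes that did not pass numbered 7 in sham and 11 in vagotomised rats. In both surgery groups Atf4 itself and Asns, named outside the rule, were among them, with sham changes of 0.13 (limma adjusted p = 0.426) and 0.51 (adjusted p = 0.166). Psat1, an enzyme of serine synthesis, rose in both (1.40 ± 0.20 and 1.17 ± 0.20, limma adjusted p = 1.43e-05 and 0.000168). Sesn2 rose by 1.67 ± 0.29 (limma adjusted p = 0.000147) and the stress gene Ddit4 by 0.98 ± 0.27 (adjusted p = 0.00794) in sham rats, and Chac1 and Trib3, named outside the rule, completed the 5. In ozone, vagotomised rats had lower Ddit4 (-1.33 ± 0.27, limma adjusted p = 0.0188) and Sesn2 (-1.16 ± 0.29, adjusted p = 0.0456) than sham rats, calls that were lost in 5 and 19 of 34 alternatives, removals of single libraries among them. For none of the 12 did the difference between the ozone changes pass the limma test, and its value for Sesn2 was -1.55 ± 0.41 (adjusted p = 0.305). Of 7 tested genes of amino acid sensing by mTORC1 and GCN2 none rose, and 1 fell in sham and 2 in vagotomised rats. Over all genes 13.8% and 9.63% fell. Nprl3, a subunit of the GATOR1 complex that restrains mTORC1, fell by 1.08 in sham and 0.87 in vagotomised rats (limma adjusted p = 6.94e-05 and 0.00104), and Nprl2 of the same complex fell by 0.43 in vagotomised rats (adjusted p = 0.0320, lost in 6 of 34 alternatives).

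Markers of other liver cells were counted beside the shares over all genes, 28.4% called in sham and 21.1% in vagotomised rats. In sham rats 1 of 6 Kupffer cell, 1 of 5 endothelial and 1 of 2 tested leukocyte markers fell, of 6 stellate cell markers 1 rose and 1 fell, and none of 4 tested cholangiocyte markers passed. In vagotomised rats 1 endothelial marker rose and no other passed. Summed Kupffer cell markers ranged from 4207 to 5489 in sham air and 4226 to 5632 in sham ozone, and summed leukocyte markers from 159 to 208 and 103 to 143. In vagotomised rats the Kupffer cell sums ranged from 4000 to 6647 in air and 3860 to 8296 in ozone. The leukocyte sums there ranged from 135 to 167 in air and 76.3 to 215 in ozone. The part of these cells in the transporter values was not tested. Of 4 pancreas markers Cela1 alone is listed, at 529 to 966 over all groups, with no call. Of the fat markers none is listed, and of the muscle markers the single listed gene summed to at most 8.01.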

How the data were processed

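Liver RNA from 22 rats was sequenced, and the authors deposited a table of normalised read counts, a signal in which each library's counts are divided by its size factor. STAR, Partek, DESeq and DESeq2 and the build rn6 are named, without versions, per the submitters' processing notes. The read counts were recovered from the step size of each of the 22 columns, with all values whole to within 0.001, and 0 columns were left out. Symbols are used as deposited.

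Values were analysed as log2(normalised count + 1) after a minimum mean of 10. limma 3.58.1 (R 4.3.3, empirical Bayes with trend, two-sided, Benjamini-Hochberg) fitted the 4 group means, with calls made under an adjusted p of 0.05. The 5 comparisons share groups, so their values are given side by side. The limma p-values set a difference of group means against the spread between rats, pooled over the 4 groups. This pooling also covers Slc38a2, whose coefficient of variation was 67.1% in sham ozone and 20.1% in vagotomised air. Correlations of deviations used 100000 permutations. edgeR 4.0.16 (quasi-likelihood, TMM) and DESeq2 1.42.0 on the recovered reads were alternatives. On simulated data for ozone in sham rats (12412 genes) the share of true changes recovered was 38.5% at 1.5-fold, 81.8% at 2-fold and 100% at 4-fold, with 9 false calls among 12216.

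The members and lists were chosen with earlier results of these data known. Named genes are the 5 transporters, up to 3 called genes in each direction per list and comparison with a mean of at least 50, and the 3 most correlated genes per transporter; others are marked. Of 93 list genes 79 are listed and 74 were tested. Replicate numbers did not pair the rats. The alternatives were 12 other settings (11 for the difference) and leaving out each of 22 libraries. Promoter windows are RefSeq GRCr8 sequences, used for letters and not joined to rn6. Figures were drawn with matplotlib 3.10.9.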

Additional observations from a re-analysis of the deposited data

Results flagged for a closer look

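The Slc3a2 value of sham air library 2, 791 normalised counts, lay apart from the other 4 sham air libraries, of which the nearest held 968. Its distance exceeded Dixon's critical value for 5 samples. This was 1 of 20 groups examined, 5 genes in 4 groups, and chance alone gives such a distance in about 1 in 20 groups. The Slc3a2 rise with ozone in sham rats kept its call with any single library left out, with changes from 0.89 to 0.99.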

How the results depend on the processing

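There were 34 alternatives per comparison, 22 of which left out a library, and 33 for the difference of the ozone changes. Of the transporters' ozone changes only those of Slc38a3 lost a call or turned sign under any alternative: its change in sham rats was -0.00213 with equal column totals, and in vagotomised rats its call was lost at 0.27 (equal column totals), 0.24 (upper quartiles) and 0.26 (without the 4 libraries low in 5.8S, an alternative chosen with the data known), with 0.25 to 0.34 when single libraries were left out. Equal column totals moved the median of all genes in sham rats from 0.01 to -0.09 and the split of calls from 1809 risen and 1717 fallen to 1200 and 2339, and upper quartiles gave 1363 and 2325. Values near 0 that never passed turned sign: without the 4 libraries Slc38a4 gave 0.054 and Slc3a2 -0.035 for vagotomy in air, and Slc38a4 gave -0.000119 for the difference. With single libraries left out these ran from -0.14 to 0.076, -0.058 to 0.077 and -0.043 to 0.18, and Slc38a4 for vagotomy in ozone from -0.070 to 0.12. Over all genes, the calls for vagotomy in ozone were 366.0 with DESeq2, 14 with only the groups compared, 269 without the 4 libraries and 15 to 217 with single libraries left out, against 166, and those for the difference were 16 with DESeq2 and 0 to 1 with single libraries left out. The cause was not tested. Replicate numbers share no animal or batch in the labels: over 31 same-number pairs the deviations correlated with r of -0.49 to 0.61 (median 0.03, against 0.04 for 150 other pairs), and 2 of 22 libraries correlated best with their own number. With the replicate block Slc38a2 gave 1.45 (limma adjusted p = 0.0110) in sham rats and Slc38a3 0.30 (adjusted p = 0.0437) in vagotomised rats, the block changed no transporter's call, and 3306, 2490, 0, 164 and 0 genes were called. In simulated data for ozone in sham rats, 38.5% of changes of 1.5-fold were found. Those data left 12216 of 12412 genes unchanged, while 28.4% of genes were called in the real comparison, so the share found may differ there. The other comparisons were not simulated. For Slc38a3, which did not pass in sham rats, the 95% interval of the ozone change was -0.10 to 0.30.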
